A study of Mus musculus with 9 samples.

Results

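The cathepsins are the proteases of the endosome and lysosome, and 10 cathepsin genes (Ctsa, Ctsb, Ctsc, Ctsd, Ctse, Ctsh, Ctsk, Ctsl, Ctss and Ctsz) were followed here out of the 53801 genes listed in each library. They were taken as a named list and matched from Ensembl identifier to mouse symbol, and each of the 10 symbols matched 1 identifier. Monocytes/macrophages of male C57BL/6J mice aged 9 weeks were sorted as CD11c-Ly6G-CD11b+CD45high cells from stroke brain, stroke blood and sham blood, with 3 libraries in each group. The age is that of the deposited design, and the methods of the study give a wider range. For stroke, the distal middle cerebral artery (dMCAO) and the common carotid artery of the left side were permanently occluded, and the ipsilesional hemisphere and the blood were taken 5 days after dMCAO. Sham blood came from sham-operated mice whose day of sampling is not given in the sources used here. Each brain library pooled cells of 5 mice and each blood library came from 1 mouse, so the spread between brain libraries is a spread between pools.

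Most cathepsins are cysteine proteases of the papain family (Ctsb, Ctsc, Ctsh, Ctsk, Ctsl, Ctss and Ctsz), while Ctsd and Ctse are aspartic proteases and Ctsa is a serine carboxypeptidase. They are made as inactive precursors, sorted to acidic compartments largely by mannose 6-phosphate receptors and activated there by removal of a propeptide. In macrophages they degrade phagocytosed material and help to prepare antigen for MHC class II, and cystatins hold the cysteine members in check.

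Total counts lay between 18475118 and 22623578 per library, and 3 counts, taken as the floor of detection, corresponded to 0.133 to 0.162 CPM, that is counts scaled to 1000000 per library. Levels are given as TMM-normalised CPM, which correct the library sizes as if the bulk of genes were at equal levels, and group values are mean ± SD (n = 3). A gene was called a DEG where edgeR's quasi-likelihood test gave an adjusted p (Benjamini-Hochberg, over all genes tested) below 0.05 and the log2 fold change exceeded 1 in size. For 1 gene on its own, the smallest p of a two-sided exact permutation test with 3 libraries per group is 0.1. Scaling by library size only moved the median log2 fold change of all genes by 0.155 between brain and stroke blood and by 0.122 between brain and sham blood, and upper-quartile scaling moved the former by -0.149. Differences of this size in single genes cannot be told apart from the scaling.

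The sorted cells carried the transcripts of monocytes and macrophages. All 9 monocyte/macrophage markers were detected in all 9 libraries, with Lyz2 the most abundant, and their summed level was 91580 to 128300 CPM in the blood libraries and 42960 to 49470 CPM in the brain libraries. Of these markers, Lyz2 and Ly6c2 were downregulated in brain libraries when set against stroke blood and the other 7 were not DEGs. Ly6g, excluded by the gate, had 0 to 14 counts in every library. Itgax, which encodes the CD11c of the gate, was at 9.90, 13.0 and 11.2 CPM in sham blood, 20.5, 11.8 and 12.2 CPM in stroke blood and 128.7, 74.1 and 80.6 CPM in the brain.

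Several libraries stood apart in other transcripts. Of 8 microglia markers, Tmem119, P2ry12 and Gpr34 were upregulated in the brain relative to stroke blood. Sall1, Siglech, Olfml3, Sparc and Fcrls, with 0 to 20 counts in blood libraries, were also called but passed the filter on low counts only through the brain. The sum of the 8 was 16.9 to 51.3 CPM in blood, with 1 to 4 of them at 0 counts, and 926.7, 1341 and 2924 CPM in brain replicates 1, 2 and 3. Sparc led this sum in brain replicate 1 and Fcrls in replicates 2 and 3. Sall1, a defining microglial transcription factor, was at 0 in all of the blood and had 137, 150 and 472 counts in brain replicates 1, 2 and 3. The 5 markers of border macrophages, led by Mrc1 in the brain, summed to 11.3 to 26.0 CPM in blood and to 51.8, 109.0 and 178.0 CPM in the brain, and 4 of the 4 tested were upregulated there, Folr2 having passed the filter only through the brain. Brain replicate 1 had only 4 counts of the border macrophage marker Lyve1, where replicates 2 and 3 had 128 and 301. In sham blood replicate 1, 7 platelet markers summed to 18.6 CPM, against 454.4 and 684.6 CPM in the other sham libraries, and 6 erythroid markers to 1248 CPM, against 33800 and 31060 CPM. Sham blood replicate 3 held 3032 CPM of 9 neutrophil markers, led by Mmp8, against 763.7 and 927.8 CPM. Each library was left out in turn in the tests of the cathepsins, while levels, shares and ranks are given with all libraries. In bulk samples, a different share of a cell type and a different RNA content per cell cannot be told apart.

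In the brain, 4 of the 10 cathepsins were upregulated relative to stroke blood (Ctsb, Ctsd, Ctsk and Ctsl) and 0 were downregulated. Among all 13189 genes tested, 21% were DEGs and 13.1% were upregulated. With no fold change threshold 5 of the 10 passed the adjusted p, against 30.6% of all genes, and the brain and stroke blood libraries did not overlap in the same number, 5 of 10, against 48.2% of all genes. The 10 members had a median log2 fold change of 0.50 and all genes tested one of 0.06. All 10 were tested, but Ctsk passed the filter on low counts only through the brain libraries.

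**Figure D1:**
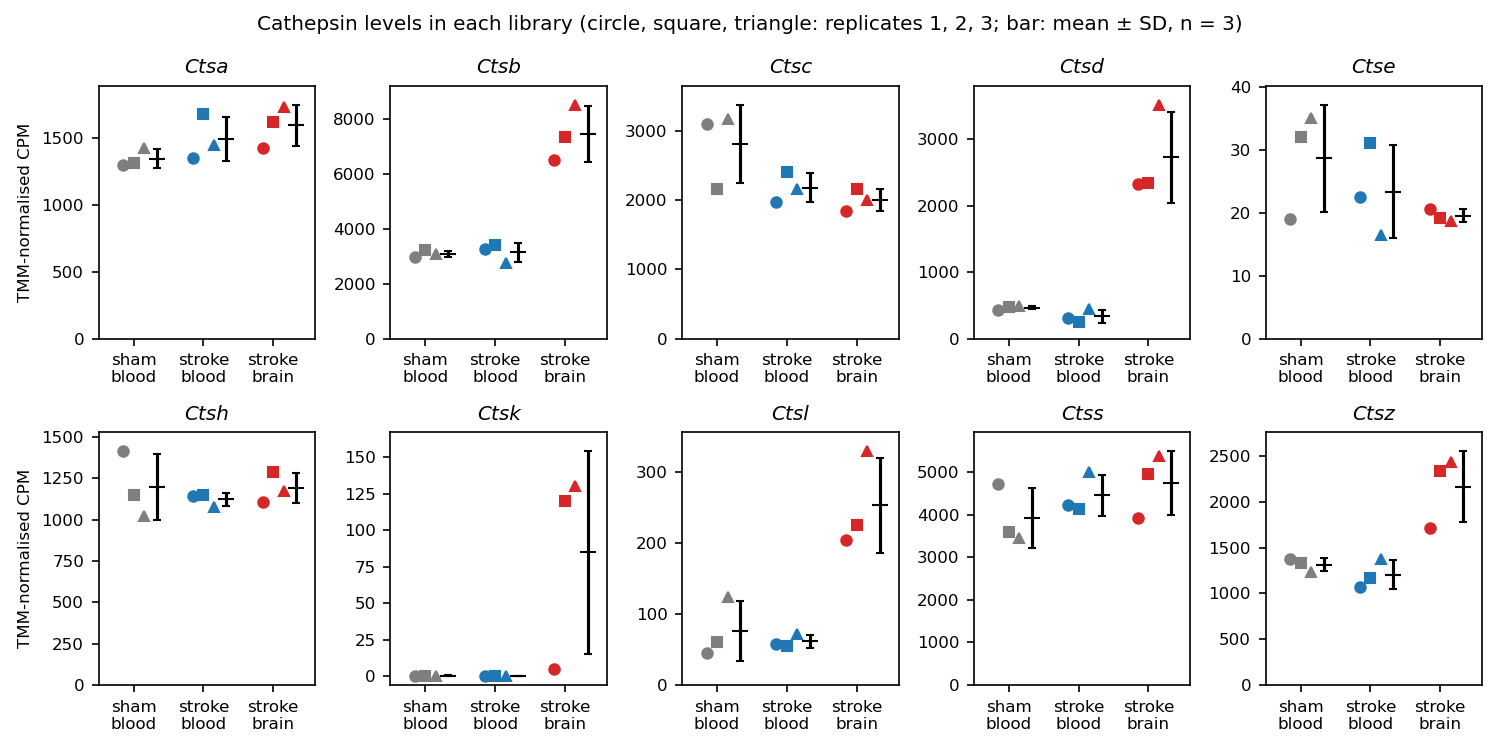
Level of each cathepsin in each library in TMM-normalised CPM on linear axes, by group (grey sham blood, blue stroke blood, red stroke brain); circles, squares and triangles are replicates 1, 2 and 3 and the black bar is mean ± SD (n = 3). The brain libraries of Ctsb, Ctsd, Ctsk, Ctsl and Ctsz lie above every blood library, and Ctsk is at 4.87 CPM in brain replicate 1 and at 119.8 and 130.6 CPM in replicates 2 and 3.

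Of the aspartic members, Ctsd encodes the major aspartic endopeptidase of lysosomes (ENSMUSG00000007891, GRCm38 chr7:142375911-142388038, minus strand). It was at 436.0, 473.4 and 488.0 CPM in sham blood, 304.7, 254.5 and 446.5 CPM in stroke blood and 2324, 2346 and 3523 CPM in the brain. The lowest brain library was above every blood library, with brain replicate 3 the highest of the brain libraries. Means were 335.2 ± 99.6 CPM for stroke blood and 2731 ± 686 CPM for brain macrophages, and the fitted log2 fold change was 3.06 (SE 0.26, edgeR adjusted p = 5.85e-05), or 8.37-fold, higher in 3 of 3 brain libraries. Leaving out each library in turn gave log2 fold changes from 2.85 to 3.28. Exons of Ctsd overlap those of Gm49369 on the same strand, so the assignment of some reads is uncertain.

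Ctse, the other aspartic member, is an endosomal protease of immune cells and gastric epithelium (ENSMUSG00000004552, chr1:131638306-131675505). It was at 16.5 to 35.0 CPM in blood and 18.6 to 20.6 CPM in the brain. Its log2 fold change of -0.23 (SE 0.26, edgeR adjusted p = 0.532) was within the spread of the blood libraries and became 0.0020 without stroke blood replicate 2.

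Among the cysteine members, Ctsb encodes an enzyme that acts both as an endopeptidase and as a dipeptidyl carboxypeptidase (ENSMUSG00000021939, chr14:63122462-63145923, plus strand). Its levels were 2989, 3216 and 3072 CPM in sham blood, 3280, 3397 and 2743 CPM in stroke blood and 6504, 7353 and 8529 CPM in the brain. No blood library came near the brain libraries, of which replicate 3 was again the highest. The log2 fold change against stroke blood was 1.28 (SE 0.17, edgeR adjusted p = 0.00081), or 2.43-fold, higher in 3 of 3 brain libraries, and it was 1.15 to 1.37 with single libraries left out. Fdft1 overlaps its exons on the opposite strand, and whether the counting used strand is not given in the sources used here.

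Ctsl encodes a lysosomal endopeptidase of broad specificity (ENSMUSG00000021477, chr13:64359337-64370890, minus strand). It was at 45.05, 60.0 and 124.2 CPM in sham blood, 57.3, 54.6 and 72.5 CPM in stroke blood and 204.3, 225.3 and 329.4 CPM in the brain. Sham blood replicate 3, the library with the most neutrophil marker transcripts, had the highest blood level of Ctsl, still below each brain library. Between brain and stroke blood the log2 fold change was 2.08 (SE 0.21, edgeR adjusted p = 0.000184), or 4.22-fold, higher in 3 of 3 brain libraries, and it was 1.85 to 2.21 with single libraries left out. Gm49230 on the same strand and Gm47123 on the opposite strand share exon positions with Ctsl, which makes its reads uncertain in part.

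Ctsk, known as the collagen-degrading protease of osteoclasts, was close to the floor in blood (ENSMUSG00000028111, chr3:95499256-95509362, plus strand). It had 5, 0 and 6 counts in sham blood, 0, 7 and 0 counts in stroke blood and 100, 2886 and 2998 counts in the brain. In CPM the brain libraries were at 4.87, 119.8 and 130.6, so replicates 2 and 3 were 24.6-fold and 26.8-fold above replicate 1, and replicate 1 was itself above every blood library. The fitted log2 fold change against stroke blood was 9.41 (SE 1.43, edgeR adjusted p = 0.00139), a value that rests on 7 counts in 1 blood library. Without stroke blood replicate 2 the remaining stroke blood libraries held 0 counts, and the fitted value of 13.78 (edgeR adjusted p = 0.0153) depends on the prior count. Without brain replicate 1 it was 9.97 (SE 0.56, edgeR adjusted p = 1.39e-05), and the adjusted p ranged up to 0.0153 over the libraries left out. The markers of border macrophages and microglia were also lowest in brain replicate 1 as sums, and their part in the level of Ctsk was not tested.

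Ctsz, a carboxypeptidase, was at 1373, 1330 and 1238 CPM in sham blood, 1074, 1167 and 1376 CPM in stroke blood and 1719, 2341 and 2432 CPM in the brain (ENSMUSG00000016256, chr2:174427493-174439039, minus strand). All 3 brain libraries were above the blood libraries, with replicate 1 the lowest. The log2 fold change of 0.88 against stroke blood (SE 0.18, edgeR adjusted p = 0.00568) passed the adjusted p but not the fold change threshold. It passed both when libraries were scaled by size only (1.03, edgeR adjusted p = 0.00224) and without brain replicate 1 (1.02, edgeR adjusted p = 0.0018), and over all alternatives the adjusted p was at most 0.0384. Nelfcd overlaps exons of Ctsz on the opposite strand.

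The remaining cysteine members did not pass the test in any comparison. Ctss (ENSMUSG00000038642, chr3:95526786-95556403), which trims the invariant chain of MHC class II in antigen-presenting cells, was at 4719, 3579 and 3452 CPM in sham blood, 4219, 4130 and 5006 CPM in stroke blood and 3910, 4940 and 5364 CPM in the brain. The groups overlapped, and the log2 fold change of 0.12 between brain and stroke blood (SE 0.17, edgeR adjusted p = 0.611) turned to -0.02 with upper-quartile scaling. Ctsc (ENSMUSG00000030560, chr7:88278085-88310888), the dipeptidyl peptidase that activates granule serine proteases, ranged from 1985 to 3179 CPM in blood and from 1843 to 2173 CPM in the brain. Its log2 fold change of -0.09 (SE 0.15, edgeR adjusted p = 0.685) turned to 0.06 with library size only. Ctsh (ENSMUSG00000032359, chr9:90054152-90076089), an aminopeptidase, ranged from 1021 to 1413 CPM in blood and from 1108 to 1290 CPM in the brain. Its groups overlapped as well, and its log2 fold change of 0.12 (SE 0.14, edgeR adjusted p = 0.56) turned to -0.03 with upper-quartile scaling.

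Ctsa, the serine carboxypeptidase, also stabilises neuraminidase 1 and beta-galactosidase in a lysosomal complex (ENSMUSG00000017760, chr2:164832873-164841032, plus strand). It was at 1302 to 1681 CPM in blood and 1429 to 1737 CPM in the brain. The log2 fold change of 0.13 against stroke blood (SE 0.16, edgeR adjusted p = 0.584) turned to -0.02 with upper-quartile scaling. Neurl2 and Pltp overlap its exons on the opposite strand.

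**Figure D2:**
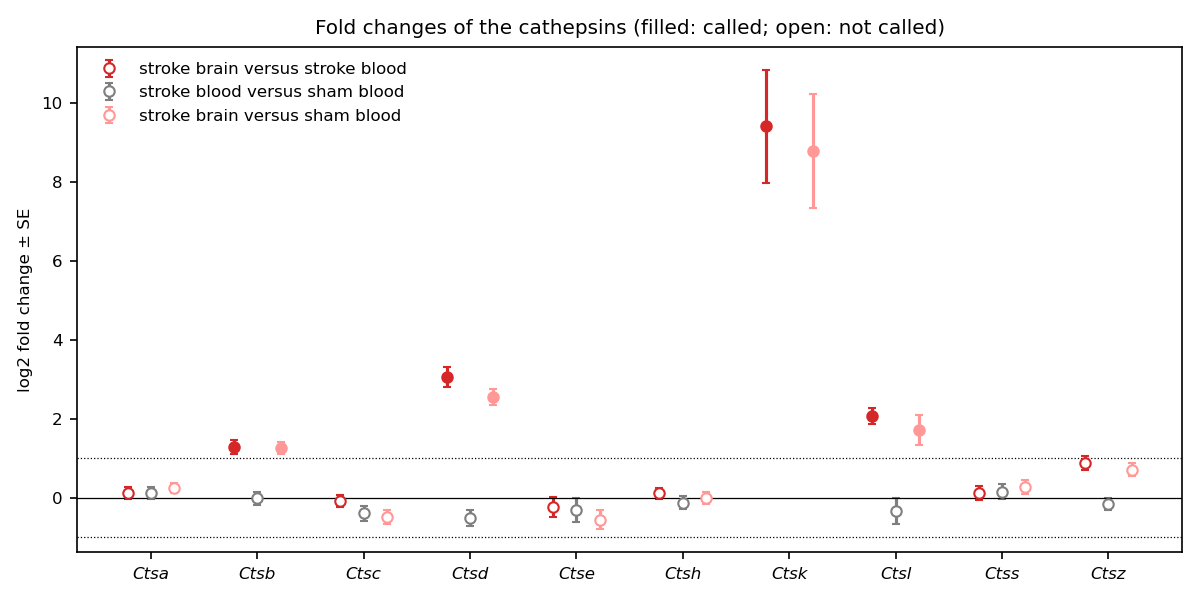
Log2 fold change ± SE of each cathepsin in the 3 comparisons, from edgeR; filled points are called, open points are not, and dotted lines mark log2 fold changes of 1 and -1. Ctsb, Ctsd, Ctsk and Ctsl are filled in both comparisons of the brain, no point is filled for stroke blood versus sham blood, and the sign of Ctsa, Ctsc, Ctsh and Ctss in brain versus stroke blood turns with the scaling.

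Stroke blood was then compared with sham blood, which bears on whether blood monocytes already differ 5 days after dMCAO. edgeR called 0 of the 9 cathepsins tested, and Ctsk did not pass the filter on low counts. Among all 12664 genes tested 0.0079% were DEGs, 0.0079% were upregulated and 0.0079% passed the adjusted p with no fold change threshold. The single DEG was Serpinb10, which encodes an intracellular serpin and is named here after its values were seen (log2 fold change 1.84, edgeR adjusted p = 0.0231). DESeq2 gave 127 DEGs, edgeR with no filter on low counts gave 160, and with the replicate number as a block edgeR gave 0 upregulated and 1 downregulated gene, so that Serpinb10 was not called. Leaving out single libraries gave 0 to 16 DEGs, with 0 without sham blood replicate 2 or any stroke blood library, 2 without sham blood replicate 3 and 16 without sham blood replicate 1, and 0 cathepsins each time. At an unadjusted p below 0.05 edgeR gave 1 of 9 members, Ctsd, beside 12.5% of all genes, which is near the background, and DESeq2 called 0 members. Ctsd had a log2 fold change of -0.51 (SE 0.20, edgeR adjusted p = 0.365), and its sham and stroke blood libraries overlapped at 436.0 and 446.5 CPM. No member had groups that did not overlap, against 18.1% of all genes. The other 8 members lay between log2 fold changes of -0.40 (Ctsc) and 0.15 (Ctss), that of Ctsb (-0.01) turning to 0.07 with upper-quartile scaling, with a median over the 9 of -0.16 beside -0.03 for all genes tested.

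Sham blood was also used as a further baseline for the brain, with the same brain libraries as above, so this comparison is not independent of the one with stroke blood. Again 4 of 10 members were upregulated and 0 downregulated, where 13.4% of 13020 genes tested were DEGs and 9.75% were upregulated. Ctsk, 1 of the 4, had 5, 0 and 6 counts in sham blood and passed the filter on low counts only through the brain libraries. With no fold change threshold 5 members passed, against 19.8% of all genes, and 6 had groups that did not overlap, against 41.2%. The sixth was Ctsa, whose lowest brain library and highest sham library both rounded to 1429 CPM. The median of the members was 0.50 and that of all genes 0.01. Ctsh (log2 fold change -0.01, edgeR adjusted p = 0.981) turned to 0.12 with library size only.

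Side by side, the log2 fold changes against sham and stroke blood were 2.55 and 3.06 for Ctsd. For Ctsb they were 1.27 and 1.28, for Ctsl 1.73 and 2.08, and for Ctsz 0.72 and 0.88. Ctsc, at -0.49 and -0.09, and Ctse, at -0.56 and -0.23, went the other way and were not called (edgeR adjusted p against sham blood = 0.095 and 0.152). At an unadjusted p below 0.05 edgeR gave 6 members against sham blood, Ctsb, Ctsc, Ctsd, Ctsk, Ctsl and Ctsz, beside 34.3% of all genes. Against sham blood the edgeR adjusted p was 0.000417 for Ctsd, 0.00208 for Ctsb, 0.0067 for Ctsk and 0.0184 for Ctsl. That of Ctsk, tested only through the brain libraries, belongs to a log2 fold change of 8.79 (SE 1.45) that rests on 5, 0 and 6 counts in sham blood. Ctsl was no longer called without sham blood replicate 2 (edgeR adjusted p = 0.0661) or brain replicate 3 (0.0619), and over the other alternatives its adjusted p was at most 0.0476. At the stricter threshold of an adjusted p below 0.01, 3 members were called and Ctsl was not. Of all 13020 genes tested, 610 were then upregulated and 182 downregulated. Without sham blood replicate 3, in which Ctsl was highest, its log2 fold change was 2.26 (edgeR adjusted p = 0.00612). Ctsz, below the fold change threshold, had an edgeR adjusted p of 0.0209 that ranged up to 0.082 when single libraries were left out. Without sham blood replicate 1, the library low in platelet and erythroid transcripts, 4 of 10 members were called, as also without replicate 3. Among all 13798 genes tested without replicate 1, 1100 were upregulated and 456 downregulated. Without replicate 3 these were 869 and 277 of 13761 genes.

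The 10 cathepsins together took 2.09%, 2.39% and 2.68% of all counts in brain replicates 1, 2 and 3, against 1.27% to 1.40% in stroke blood and 1.34% to 1.51% in sham blood. The Wilson 95% interval of brain replicate 1 was 2.08% to 2.09%, and intervals cover counting error only, since PCR copies were not told apart. Summed levels were 14250 ± 1066 CPM in sham blood, 14020 ± 504 CPM in stroke blood and 22250 ± 3089 CPM in the brain. Every brain library was above every blood library, both with TMM and with library size only.

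Levels of different members can be compared only per length of their exons. On the scale of CPM per kilobase of exon, Ctss was the highest member in all 3 groups, at 2884 ± 514 in sham blood, 3278 ± 355 in stroke blood and 3489 ± 551 in the brain. Ctsz and then Ctsb followed by their means in each group, the libraries of Ctsb and Ctsc overlapped in sham blood, and in the brain Ctsz (1502 ± 269), Ctsb (1233 ± 168) and Ctsd (1162 ± 292) were neighbours whose libraries overlapped. In stroke blood Ctsd was the seventh at 142.6 ± 42.4 per kilobase, below Ctsh at 249.4 ± 8.47 with no overlap. Below Ctsd in blood came Ctsl and Ctse, whose libraries overlapped, and then Ctsk. In the brain Ctsc and Ctsa overlapped, followed by Ctsh, then Ctsk and Ctsl, which overlapped, and Ctse. Ctsk also overlapped Ctse, since in brain replicate 1 Ctsk was the lowest member, at 3.22 per kilobase against 6.497 for Ctse. Among 13558 genes with an exon length, Ctsd ranked 443 per length in stroke blood and 28 in the brain, while Ctss ranked 15 and 10.

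As a share of the cathepsin transcripts per length, Ctss made up 57.3%, 54.6% and 59.3% in stroke blood and 40.9%, 42.3% and 40.9% in the brain. Ctsd made up 2.39%, 1.95% and 3.05% in stroke blood and 14.0%, 11.6% and 15.5% in the brain. Ctsb went from 9.12 ± 1.59% to 14.7 ± 0.568%, with no overlap between these groups. Ctsz, at 14.6 ± 0.805% and 17.8 ± 1.01%, also did not overlap. In sham blood Ctss made up 51.6 ± 3.61%, Ctsd 3.60 ± 0.55% and Ctsb 9.27 ± 1.20%, all without overlap with the brain, while Ctsz made up 16.5 ± 1.22% and overlapped it. With the longest transcript in place of all exons the mean share of Ctss was 50.8% in stroke blood and 36.9% in the brain, and in the brain Ctsb (16.7%) then stood above Ctsz (15.8%). Ctsc then stood above Ctsb in sham blood (13.7% and 10.3%) and level with it in stroke blood (10.5% and 10.3%), so the third place in blood rests on the length used.

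**Figure D3:**
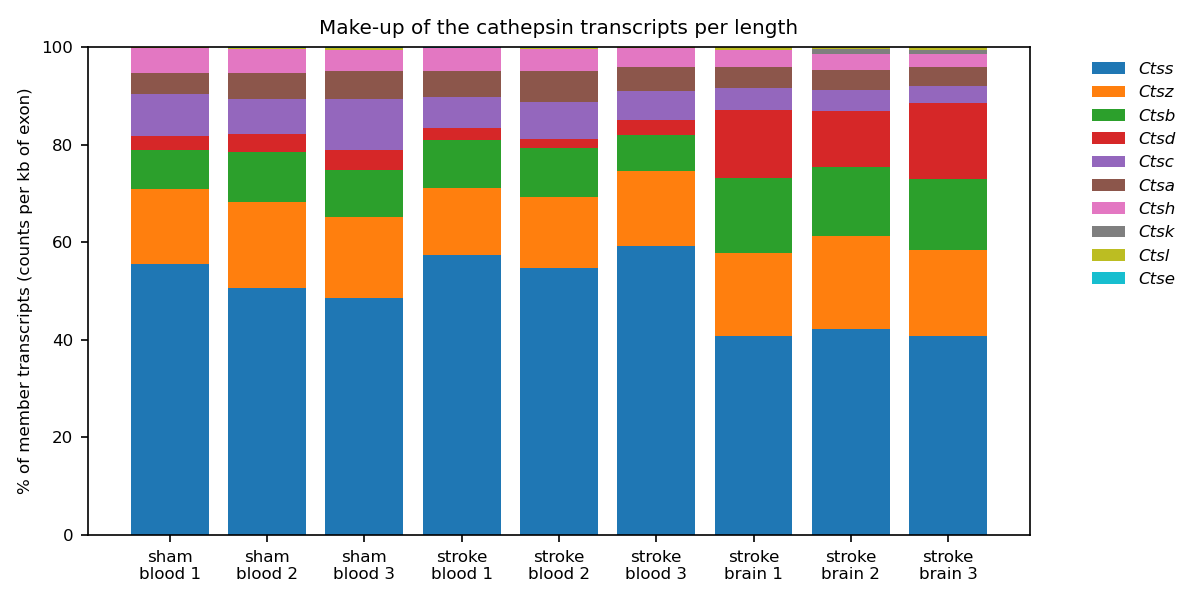
Percent of the cathepsin transcripts that each member makes up in each library, from counts per kilobase of exon; bars are single libraries and add up to 100%. Ctsd takes 11.6% to 15.5% of the bar in the brain libraries and 1.95% to 3.05% in stroke blood, and Ctss takes 40.9% to 42.3% and 54.6% to 59.3%.

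Ctsk and Ctss are neighbours on chromosome 3, both on the plus strand, with 17423 bases and 0 annotated genes between them. The former was near the floor in all blood libraries and the latter was the most abundant member per length in all 3 groups.

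The cysteine members share a short coding stretch around the codon of the catalytic cysteine. It is shown here for Ctsb, Ctsk and Ctsl, which were upregulated, and for Ctsc, Ctsh, Ctss and Ctsz, which were not DEGs. The stretches of 39 bases were taken from GENCODE M21 transcripts (GRCm38), 5′ to 3′ on the coding strand, with the cysteine codon in capitals.
Ctsb: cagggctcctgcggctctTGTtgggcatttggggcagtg
Ctsk: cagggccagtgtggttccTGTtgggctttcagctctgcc
Ctsl: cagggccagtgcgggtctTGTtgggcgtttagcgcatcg
Ctss: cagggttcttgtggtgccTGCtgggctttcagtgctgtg
Ctsh: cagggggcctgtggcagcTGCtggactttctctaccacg
Ctsc: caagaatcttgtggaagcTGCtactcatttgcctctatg
Ctsz: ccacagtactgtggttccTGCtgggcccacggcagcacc
They lie in spliced coding sequence at chr14:63135699-63136421, chr3:95501704-95502617, chr13:64367057-64367862 (minus strand), chr3:95543160-95545368, chr9:90064255-90064542, chr7:88302297-88308047 and chr2:174438178-174438216 (minus strand), in the same order. All but that of Ctsz span an intron. The codon is TGT in Ctsb, Ctsk and Ctsl and TGC in the other members. Both encode cysteine, and a link between the codon and transcript level was not tested. Ctsk matched Ctsl at 30 of 39 bases and Ctss at 29, and Ctsb matched Ctsl at 30. The fewest matches, 17, were between Ctsc and Ctsl, and Ctsz matched Ctsb at 18.

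Promoter sequences from RefSeq (GRCm38.p6; 250 bases before to 50 bases after a gene start) were matched for 7 of the 10 members in 8 windows, since Ctsa has 2. Ctsb, Ctse and Ctsh had no entry. Because the MiT/TFE factors bind CACGTG in promoters of lysosomal genes, these letters were searched on both strands, which for this palindrome give the same match. The windows of Ctsd and Ctsl and 1 of the 2 windows of Ctsa held them, beside 7.15% of all 32851 promoter windows. The stretches around the matches before the starts of the windows' RefSeq entries are printed on the strand of the gene, with the motif in capitals. These starts differ from the starts of the gene coordinates given above, by which all but the first stretch lie inside the gene.
Ctsd, 245 bases before the start: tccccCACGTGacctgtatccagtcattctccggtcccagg
Ctsd, 98 bases before the start: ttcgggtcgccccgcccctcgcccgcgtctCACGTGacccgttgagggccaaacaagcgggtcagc
Ctsl, 236 bases before the start: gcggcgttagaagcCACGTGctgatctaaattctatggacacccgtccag
Ctsa, 12 bases before the start: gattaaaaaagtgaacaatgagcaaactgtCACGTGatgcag
They lie at chr7:142388037-142388077 and chr7:142387890-142387955 (minus strand), chr13:64370721-64370770 (minus strand) and chr2:164833731-164833772. The same window of Ctsa held a further match after the start, which is not printed. Ctsd and Ctsl were upregulated in the brain and Ctsa was not a DEG. GAGGAA, the core bound by PU.1, was found in the windows of Ctsc, Ctsk and Ctss and in 28.3% of all windows, and TGANTCA, the AP-1 site, in none of the member windows and 7.81% of all. A match of letters does not show that a factor binds.

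Other cathepsin genes were counted as a list of 13. Of these, 9 had 0 counts in every library and 4 were tested, of which Ctsf, Ctsw and Ctsg were upregulated in the brain relative to stroke blood and Ctso was not a DEG. Ctsf, another papain-family member, was at 2.70, 3.32 and 3.41 CPM in stroke blood and 15.8, 20.2 and 60.9 CPM in the brain (log2 fold change 3.39, SE 0.50, edgeR adjusted p = 0.00126). Brain replicate 3 was far above the other brain libraries in Ctsf. Ctsw, a cathepsin of cytotoxic lymphocytes, rose from 19.99 ± 9.65 to 45.6 ± 8.85 CPM (log2 fold change 1.22), and Fibp overlaps its exons on the opposite strand. Ctsg, a serine protease of neutrophil granules, rose from 1.32 ± 0.272 to 6.74 ± 1.62 CPM (log2 fold change 2.38). Ctso was at 47.5 ± 9.02 and 59.7 ± 12.6 CPM, with overlapping groups (log2 fold change 0.36, edgeR adjusted p = 0.24).

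Of 10 inhibitors, the cystatins and stefins, 3 were tested, 1 was upregulated in the brain relative to stroke blood and 0 were downregulated, with a median log2 fold change of 0.92. Cst7, which encodes cystatin F, was at 18.4, 7.30 and 6.28 CPM in stroke blood and 43.3, 41.7 and 49.7 CPM in the brain (log2 fold change 2.11, SE 0.38, edgeR adjusted p = 0.00323). Cst3, which encodes the secreted cystatin C and had the highest CPM of the inhibitors, was at 3524, 2979 and 4111 CPM in stroke blood and 3294, 3807 and 5582 CPM in the brain. The groups of Cst3 overlapped (log2 fold change 0.29, edgeR adjusted p = 0.333). Against sham blood 2 inhibitors were called, Cst7 and, named here after its values were seen, Cstb. Cstb, which encodes the intracellular cystatin B, was at 202.1 ± 32.3 CPM in sham blood and 406.0 ± 43.6 CPM in the brain. Its log2 fold change of 1.0039 against sham blood (edgeR adjusted p = 0.00655) only just exceeded the threshold. Against stroke blood, at 220.3 ± 25.0 CPM, that of Cstb was 0.92 (edgeR adjusted p = 0.00217), just below the threshold and without overlap.

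Among 5 partners in processing, only Lgmn was a DEG between brain and stroke blood. Lgmn encodes legumain, the asparaginyl endopeptidase that cleaves cathepsins B, H and L between their chains, and it was at 147.7, 161.2 and 149.2 CPM in stroke blood and 690.5, 604.9 and 748.8 CPM in the brain. The groups were far apart (log2 fold change 2.19, SE 0.15, edgeR adjusted p = 2.64e-05). Psap, the precursor of the saposins, was at 3885, 5066 and 4913 CPM in stroke blood and 3184, 1611 and 3653 CPM in the brain. This difference did not pass (log2 fold change -0.68, edgeR adjusted p = 0.0945). The list had a median of 0.27.

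Of 9 genes for lysosomal sorting and membrane proteins, Lamp1 and Igf2r were upregulated in the brain relative to stroke blood, 0 were downregulated and the median was 0.48. Igf2r, the large mannose 6-phosphate receptor, rose from 2.97 ± 0.819 to 12.7 ± 1.21 CPM (log2 fold change 2.14, SE 0.31, edgeR adjusted p = 0.00112). Lamp1, a membrane glycoprotein of lysosomes, was at 326.5, 204.1 and 467.2 CPM in stroke blood and 1038, 1109 and 1169 CPM in the brain (log2 fold change 1.77, edgeR adjusted p = 0.00109). In sham blood Lamp1 was at 195.0, 1377 and 817.2 CPM, a spread that covered the brain libraries, and against sham blood it was not called. Lamp2, with the highest CPM of those not called, was at 718 ± 70.2 and 599.9 ± 30.7 CPM.

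The 4 MiT/TFE factors, which control lysosomal genes, were not DEGs between brain and stroke blood, where their median was 0.00. At an unadjusted p below 0.05 edgeR gave 1 of them, Tfec, named here after its values were seen, beside 42.2% of all genes, and its adjusted p was 0.0847. Tfe3, with the highest CPM of them, was at 94.3, 108.7 and 121.5 CPM in stroke blood and 120.6, 111.7 and 99.5 CPM in the brain. Against sham blood 1 factor was called, Tfec, which was downregulated (log2 fold change -1.27, edgeR adjusted p = 0.00965).

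Of 5 genes of antigen processing, Cd74, H2-DMb1 and H2-DMb2 were upregulated in the brain relative to stroke blood and the median was 1.38. Cd74, the invariant chain that Ctss and Ctsl can trim, was at 1971, 3552 and 3764 CPM in stroke blood and 12540, 8273 and 7838 CPM in the brain. All brain libraries were above the blood libraries, with replicate 1 the highest (log2 fold change 1.66, SE 0.28, edgeR adjusted p = 0.00255). H2-DMb1 and H2-DMb2, chains of the peptide-loading molecule H2-DM, rose from 237.4 ± 62.2 to 602.0 ± 46.4 CPM and from 17.3 to 46.8 ± 4.28 CPM. H2-DMa, their partner chain, was at 651.2 ± 170.6 and 585.5 ± 0.505 CPM and was not a DEG. Ifi30, named here after its values were seen, went the other way, at 510.4 ± 123.8 and 318.0 ± 18.2 CPM without overlap. Its log2 fold change of -0.64 (edgeR adjusted p = 0.0236) passed the adjusted p but not the fold change threshold. Against sham blood the log2 fold change of Ifi30 was -0.65 (edgeR adjusted p = 0.0337).

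Of 6 granule proteases, most of them activated by the product of Ctsc, Elane, Ctsg and Gzmk were upregulated in the brain relative to stroke blood, and the median was 1.94. Ctsg is also counted among the other cathepsins. Elane, neutrophil elastase, was at 4.28, 1.09 and 2.27 CPM in stroke blood and 148.4, 10.5 and 16.8 CPM in the brain, so that brain replicate 1 held most of it. Gzmk had 4, 0 and 4 counts in stroke blood and 74, 68 and 35 counts in the brain, and it passed the filter on low counts only through the brain libraries. Gzma, which was not called, had the highest CPM of the list, at 275.8 ± 179.4 and 495.2 ± 204.3 CPM, and Ctsc itself did not pass the test.

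**Figure D4:**
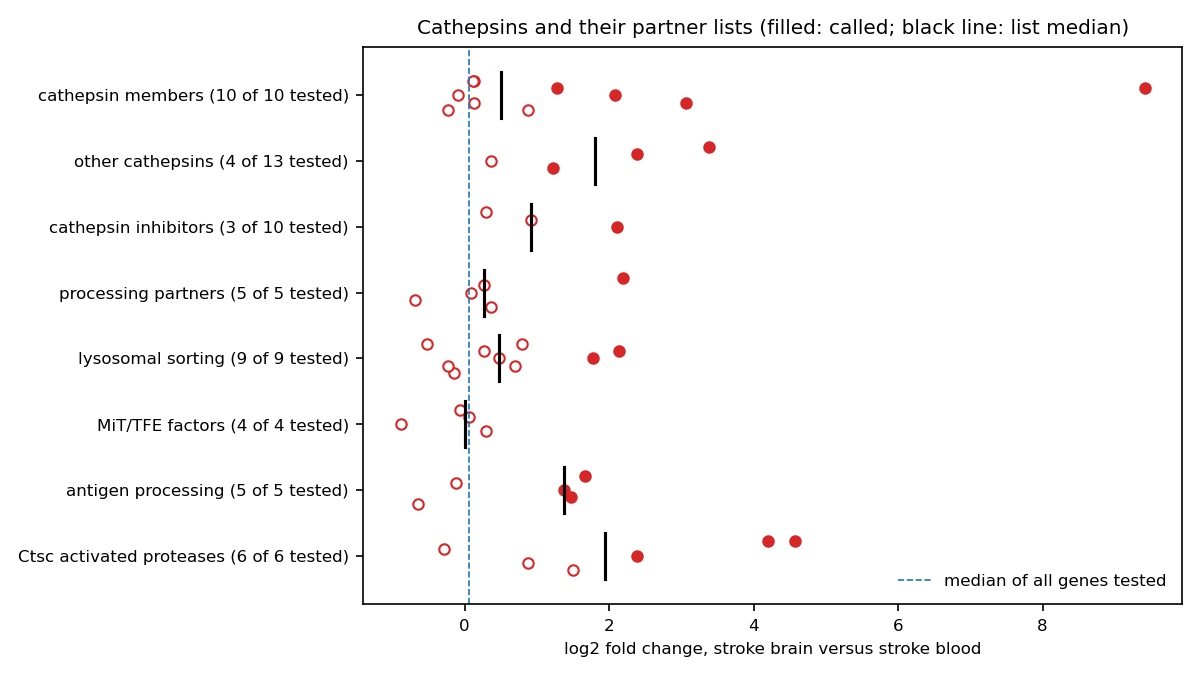
Log2 fold change of each tested gene between stroke brain and stroke blood, by list; filled points are called, open points are not, black lines are list medians and the dashed line is the median of all genes tested (0.06). Of the cathepsin list 4 points are filled, and of the MiT/TFE factors none.

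Cathepsin levels also differed between the brain pools. Relative to brain replicate 1, replicate 3 was 1.61-fold for Ctsl, 1.52-fold for Ctsd and 1.31-fold for Ctsb, and, of members that were not DEGs, 1.41-fold for Ctsz and 1.37-fold for Ctss. Tmem119, a microglia marker, was 3.36-fold, and Mrc1, a border macrophage marker, 2.89-fold. These 5 cathepsins, Ctsa (1.22-fold) and Ctsk (26.8-fold) were highest in replicate 3, the brain library with the highest summed microglia and border macrophage markers. Ctsc (1.09-fold) and Ctsh (1.06-fold) were highest in replicate 2 and Ctse (0.903-fold) in replicate 1. The share of all genes that were highest in replicate 3 was not counted, so there is no background for these members. Without brain replicate 3, Ctsb, Ctsd, Ctsk and Ctsl were called against stroke blood. The microglia markers still summed to 926.7 and 1341 CPM in the remaining brain libraries, so the part of the marked cells in the cathepsin levels was not tested.

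**Figure D5:**
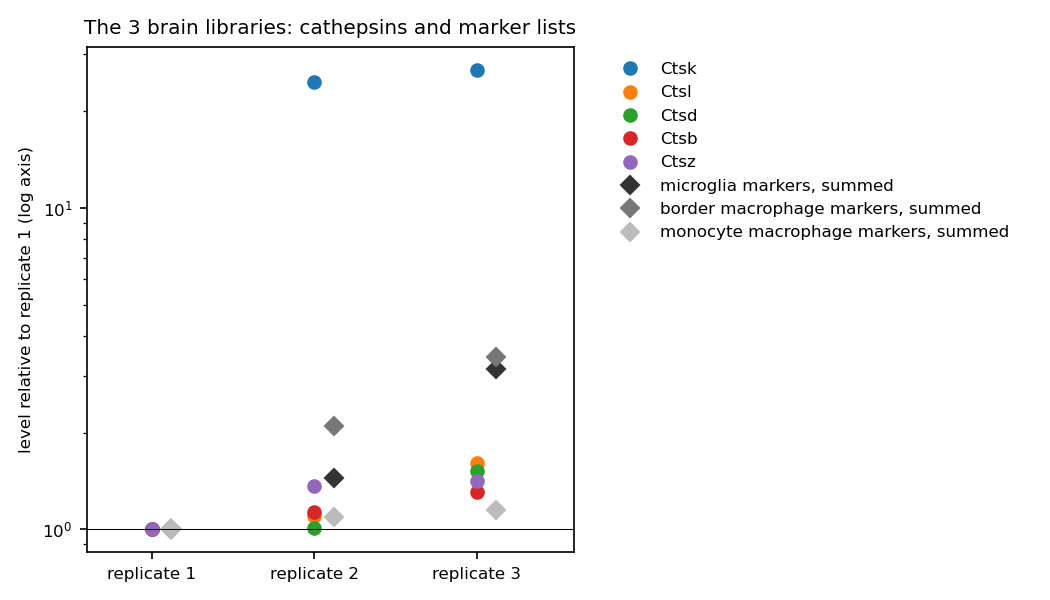
Levels in the 3 brain libraries relative to replicate 1, on a log axis; circles are single cathepsins and diamonds are summed marker lists of TMM-normalised CPM. Ctsk is 24.6-fold and 26.8-fold in replicates 2 and 3, and no other cathepsin shown is above 1.61-fold.

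Other marker lists differed between brain and blood as well. Of 6 dendritic cell markers, which include Itgax, 5 were upregulated in the brain relative to stroke blood, and their sum, led by Cd209a, was 124.8, 227.1 and 104.8 CPM in stroke blood and 762.8, 618.0 and 606.6 CPM in the brain. Clec9a and Zbtb46, with 2, 1 and 4 and with 15, 33 and 4 counts in stroke blood, passed the filter on low counts only through the brain, as did the neutrophil markers Camp, Ltf and Ngp, each at 0 in stroke blood replicate 1. Of 9 neutrophil markers 7 were tested, 5 were upregulated and 1, Mmp8, was downregulated, with sums of 462.0, 790.5 and 684.6 CPM and of 1018, 833.3 and 1380 CPM. Platelet markers (6 of 7) and erythroid markers (6 of 6) were downregulated, some having passed the filter only through blood (Gp5 and Slc4a1 had 0 counts in the brain), and the erythroid sum was 14070 to 20410 CPM in stroke blood and 3.80 to 13.7 CPM in the brain. Of 8 T and NK cell markers 3 were upregulated, and their sum, led by Nkg7, was 167.4 to 565.5 CPM in stroke blood and 468.9 to 916.0 CPM in the brain. The 4 B cell markers, led by Cd79b, were not DEGs, at 65.3 to 113.9 and 43.8 to 85.6 CPM. Against sham blood the calls differed, with 2 of 6 dendritic cell markers upregulated, 2 of the 8 neutrophil markers tested upregulated and 1 downregulated, 2 of 8 T and NK cell markers upregulated and 3 of 4 B cell markers downregulated. Basophil and mast cell markers summed to at most 7.28 CPM and were not tested. Of 7 neural markers Mbp, also transcribed in leukocytes, led in every library, the 2 tested were not DEGs, and Syt1 and Mog had 0 counts in all 9. Of 4 endothelial and choroid plexus markers, led in blood by Flt1, Ttr was called, with 0 counts throughout the blood and 1760, 334 and 944 in the brain, and Cldn5 had 0 in all 9 libraries. The part of these transcripts in the cathepsin levels was not tested.

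The genes whose profile over the 9 libraries was most like that of each member were found by the root mean square difference of centred log2 CPM among 7930 genes. For Ctsd these were Abcc3 (0.19), Slc37a2 (0.32) and Bmp2k (0.32), and for Ctsb Lpcat2 (0.14), Atad3a (0.15) and Sqstm1 (0.16). Those of Ctsl were Cd300lf (0.26), Cpne2 (0.29) and Slc16a6 (0.30). Ctsk had no close match among the genes compared, the nearest being C1qc (1.25), Tmem119 (1.34) and C1qb (1.51). Only genes with a mean log2 CPM above 3 were compared, so a gene as low in blood as Ctsk could be missed. The nearest to Ctsz were Rabep1 (0.08), Nudt9 (0.12) and Cipc (0.13). For other members that were not DEGs the nearest were Ess2, Chmp6 and Ppp1r7 for Ctsa, Adora2b, Nup155 and Snx1 for Ctsc, and Dgka, Gm37416 and Ccdc91 for Ctse. The nearest to Ctsh were Cct7, Larp4 and Ginm1, and to Ctss Anapc10, Nutf2 and Snx5, all within 0.18 of their member.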

How the data were processed

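The authors made cDNA with the SMART-Seq HT kit and sequenced Nextera XT libraries as paired ends. FastQC (within Chipster) served for read quality, HISAT2 for alignment against GRCm38 and HTSeq for counting. The deposited values are raw counts per Ensembl gene. Versions, annotation release and strand setting are not given in the sources used here, and the authors tested with DESeq2. Groups and replicate numbers come from the labels. Symbols, exon lengths and overlaps came from GENCODE M21, which held 53706 of the 53801 identifiers, and levels used TMM factors of all 9 libraries.

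Counts of each pair of groups were fitted with edgeR 4.0.16 in R 4.3.3 (filterByExpr, TMM, quasi-likelihood test, Benjamini-Hochberg over all genes tested), tested on simulated data. The SE is the log2 fold change over the square root of F. Replicates differed by more than sampling noise. Alternatives were DESeq2 1.42.0, other filters, scalings and thresholds, a fit over all 9 libraries, a block on the replicate number and each library left out. Tables were made in Python 3.11.15 with pandas 2.3.3, numpy 2.4.6 and scipy 1.17.1, sequences with Biopython 1.88 and figures with matplotlib 3.10.9.

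The members and lists were chosen with earlier results of these data known. Named are every member, of each other list up to 4 called genes with the highest mean CPM and its most abundant gene not called in brain versus stroke blood, the 3 genes most like each member (mean log2 CPM above 3), and markers by list. Cstb, Ifi30, Tfec against sham blood and Serpinb10 were named after their values were seen. A marker gene of the microglia list and another of the erythroid list are not reported here and were left out of the counts and sums.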

Additional observations from a re-analysis of the deposited data

How the results depend on the processing

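Ctsb, Ctsd, Ctsk and Ctsl were called in brain versus stroke blood under each alternative run, and 4 to 5 of the 10 members were called, the fifth being Ctsz. Against sham blood 3 to 5 were called. In stroke versus sham blood 0 were called under each alternative. Depth limits Ctsk in blood, where 0 to 7 counts set its fold.

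DEGs fell to 1793 (brain versus stroke blood), 792 (brain versus sham blood) and 0 (stroke versus sham blood) at an adjusted p below 0.01, a stricter threshold. Stroke versus sham blood gave 127 DEGs with DESeq2 and 160 with no filter on low counts; the cause was not tested. With libraries left out in turn, each fit having fewer samples, DEGs ranged from 2258 to 3014 (brain versus stroke blood), from 0 to 16 (stroke versus sham blood; 16 without sham blood replicate 1) and from 1146 to 1883 (brain versus sham blood; 1146 without sham blood replicate 3).

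Signs turned only for members that were not called, and the cause was not tested. In brain versus stroke blood, upper-quartile scaling gave -0.0201 for Ctsa, -0.0302 for Ctsh and -0.0244 for Ctss, library size only gave 0.0629 for Ctsc, and Ctse ranged from -0.47 to 0.0020 with libraries left out. In stroke versus sham blood, Ctsb was 0.0146 with a mean of at least 50 counts, 0.0028 with RLE, 0.07 with upper-quartile scaling, 0.0224 in a fit of all 9 libraries and -0.11 to 0.0848 with libraries left out. With libraries left out the sign also turned for Ctsa (-0.0158 to 0.17), Ctsh (-0.23 to 0.0165) and Ctsl (-0.61 to 0.18, the latter without sham blood replicate 3). In brain versus sham blood Ctsh was 0.0022 with a mean of at least 50 counts, 0.12 with library size only and -0.12 to 0.13 with libraries left out.

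The replicate block gave 2634, 1 and 1571 DEGs and 4, 0 and 4 members in brain versus stroke blood, stroke versus sham blood and brain versus sham blood, and 0.0039 for Ctsh in the last. The 1 DEG in stroke versus sham blood was then downregulated, and Serpinb10 was not called. Same-numbered libraries did not deviate together over all genes (r from -0.07 to 0.066 over 13612 genes). An effect shared by few genes would not show in this value and was not tested.

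The summed level of the 10 members in stroke blood was 13210 CPM with library size only against 14020 with TMM. Of the summed levels and shares, 17 moved by at least 1 SD, namely the summed level in stroke blood and shares taken with the longest transcript. Of the other values of members and alternatives, 398 kept their direction and their side of the threshold or moved by less than 1 SD. Counts of calls stayed within 1.5 times the value given in 84 cases and did not in 12.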
